A study of Saccharomyces cerevisiae with 12 samples.

Results

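The SO2 response of wild-type cells is the comparison of 3 arrays of *Saccharomyces cerevisiae* BY4741 after 60 min with 0.5 mM SO2 at pH 3.5 with 3 control arrays of the same strain and time without SO2. The members were taken from the sample labels, and they are 6 of the 12 arrays of the series. The other arrays hold a strain deleted for *COM2* (YER130C), a zinc finger transcription factor gene, in the same 2 conditions with 3 arrays each. BY4741 is a haploid laboratory strain (MATa, *his3*Δ1, *leu2*Δ0, *met15*Δ0, *ura3*Δ0), so both groups lack *MET17* (the gene removed by *met15*Δ0), *LEU2* and *URA3*. Per the study's methods, cells grown to mid-exponential phase in the minimal medium MMB at this pH were moved to fresh medium, and SO2 was given as potassium metabisulfite. RNA was hybridized to Affymetrix Yeast Genome 2.0 arrays, on which each gene is read by a set of short probes, and each of 5716 probe sets has 1 intensity per array on a linear scale.

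In solution SO2 gives sulfite and bisulfite, and sulfite is also an intermediate of the pathway by which yeast makes sulfide from sulfate. In that pathway sulfate enters through 2 permeases, is activated with ATP, is reduced to sulfite and then, by sulfite reductase, to sulfide. Sulfide is joined to a carbon chain from aspartate to give homocysteine, from which methionine, cysteine and S-adenosylmethionine (SAM) derive. The activator Met4 with its cofactors turns the pathway on, the ubiquitin ligase subunit Met30 restrains Met4, and the pump Ssu1 carries sulfite out of the cell. BY4741 lacks the enzyme Met17 that takes up sulfide, so it needs a sulfur amino acid from the medium.

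The median intensity was 1807 to 1868 on arrays with SO2 and 1704 to 1737 in the controls. Pearson's r of log2 intensities, taken over probe sets that are no independent replicates, ran from 0.985 to 0.995 between arrays with SO2, 0.974 to 0.995 between control arrays and 0.879 to 0.906 between the groups. Control replicate 3 differed most from its replicates, and over the called probe sets it lay on average 0.108 of the way from the other controls towards the arrays with SO2, where 0 is the mean of the other controls and 1 that of the other arrays with SO2. SO2 replicate 2 lay at 0.918 of that way while the others lay at −0.0379 and −0.0290 (controls) or at 1.03 and 1.03 (SO2). The deleted genes *LEU2*, *MET17* and *URA3* read at most 152.5 on any array of the series, which was taken as the upper level of a gene with no transcript. That value is from *LEU2* on an array of the other strain. On the wild-type arrays *LEU2* read at most 99.2, *URA3* at most 39.4 and *MET17* at most 17.8. The MATa-specific genes *MFA1*, *MFA2*, *STE2* and *STE6* read 7213 to 25385 in all 6 arrays, and the α-pheromone gene *MF(ALPHA)1* read 21 to 54.4. The other α-pheromone gene, *MF(ALPHA)2*, read 65.7, 76.1 and 70.7 with SO2 and 165, 199.6 and 217 in the controls, so its controls lay just above the level of the deleted genes, and its call lower (−1.45) ended with that level as background. The α-cell genes *SAG1* and *STE3* read above that level. *SAG1*, which encodes α-agglutinin, read 1742, 2209 and 1933 with SO2 and 709, 699 and 757 in the controls, and *STE3*, the receptor for a-pheromone, read 173, 243 and 166 with SO2 and 607, 705 and 841 in the controls. The cultures are labelled as biological replicates, and 3 arrays per group limit how precise each value is.

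With SO2, 597 of the 5716 probe sets were higher (10.4%) and 480 were lower (8.40%). These shares are the background for every count of a gene group. A probe set was called when its log2 intensity differed 2-fold or more, p was under 0.05 and the false discovery rate (Benjamini-Hochberg, over all probe sets) stayed under 10% in a limma model of all 12 arrays. In either direction 18.8% of the probe sets were called. The median log2 fold change was 1.44 among those higher and −1.41 among those lower, and 28 and 37 changed at least 8-fold. The 3 arrays with SO2 all lay above the 3 controls for 31.5% of all probe sets and all below them for 31.4%, so groups that do not overlap were common. The fold limit, and not the test, set most calls, since 1078 probe sets differed 2-fold and 1077 of them passed. The probe sets called lower were found more often among dim ones, with 12.9% of the dimmest 25% by mean intensity over all arrays against 6.51% of the brightest 25%. For those called higher the shares were 11.5% and 7.84%. Of 218 probe sets with no listed gene, 24 were higher and 24 lower.

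**Figure D1:**
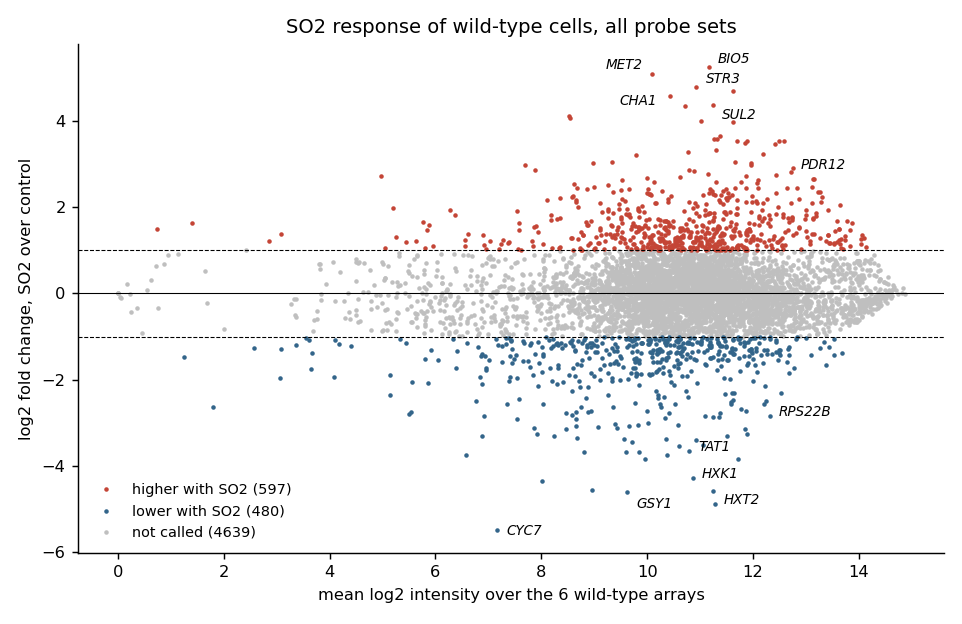
Each point is 1 probe set, with its mean log2 intensity over the 6 wild-type arrays on the x axis and its log2 fold change (SO2 over control) on the y axis, and dashed lines mark 2-fold. The 597 probe sets higher with SO2 reach a log2 fold change of 5.26 at *BIO5* and the 480 lower reach −5.48 at *CYC7*, which read under the level of the deleted genes with SO2.

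By the naming rule the 20 probe sets with the largest rise and the 20 with the largest fall among called genes were listed, and among the 20 that rose, sulfur and biotin genes stood beside a few others. *NIT1*, a nitrilase gene, read 10441, 9811 and 13855 with SO2 and 811, 1022 and 1091 in the controls, and YIL165C, which lies next to it and is annotated apart from it in this strain, read 17505, 16459.6 and 21251 with SO2 and 1394, 1790.5 and 1786 in the controls. Both rose on every array, by log2 fold changes of 3.54 and 3.47 (standard errors 0.20 and 0.21). Among the 20 that fell were genes of little known function. YER053C-A read 201, 405 and 203 with SO2 and 2151, 4555 and 2215 in the controls, and *TDA6* read 209, 309 and 202 with SO2 and 2207, 3528 and 1867 in the controls. *TMA10*, whose product binds ribosomes, read 372, 536 and 459.6 with SO2 and 6131, 5878 and 4075 in the controls, *EMI2*, a paralog of glucokinase, had a log2 fold change of −3.85, and *STP4*, which encodes a zinc finger protein, had −3.39. The naming rule took only genes whose groups did not overlap, so the separation of these groups adds no support.

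Every step from sulfate uptake to sulfide rose. All 10 genes of this list were called higher with a median of 3.53 for the log2 fold change. All 10 lay above the controls on all arrays with SO2, against 31.5% of all probe sets. The sulfate permease gene *SUL2* read 11585, 10727 and 11013 with SO2 and 440.5, 543 and 626 in the controls (log2 fold change 4.39 ± 0.15 standard error, limma adjusted p = 1.65e-08). Its partner *SUL1* read 11839, 13068 and 13596 with SO2 and 1039.9, 949 and 1379 in the controls, a log2 fold change of 3.53 (standard error 0.21). Every array with SO2 lay above every control for both permease genes. Of the activation genes, *MET3*, which encodes ATP sulfurylase, read 10039, 8425 and 9683 with SO2 and 589, 648 and 1083 in the controls (log2 fold change of 3.65, standard error 0.21). *MET16*, the reductase gene that forms sulfite, read 12676, 10982 and 13614 with SO2 and 963, 1070.5 and 1264 in the controls (3.50, standard error 0.19). The kinase gene *MET14* and the phosphatase gene *MET22* moved least in this list, with log2 fold changes of 1.78 and 1.79, and their arrays did not overlap either.

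The genes of sulfite reductase, the enzyme that uses sulfite itself, rose as well. *MET5*, its β subunit, read 19594, 19296 and 19909 with SO2 and 1470.0, 1571 and 2077 in the controls (11.6-fold, log2 standard error 0.12, adjusted p = 1.65e-08 from limma). *MET10*, its α subunit, read 21311, 20091 and 21332 with SO2 and 1440.1, 1615 and 2502 in the controls (11.6-fold). The enzyme carries siroheme, which is made by Met1 and Met8. *MET1* read 12299, 11037 and 14360.2 with SO2 and 723, 800.3 and 836 in the controls (log2 fold change of 3.99), and *MET8* read 809.5, 1091 and 686 with SO2 and 189, 201 and 143 in the controls (2.27, standard error 0.27). The heme genes that supply the precursor of siroheme did not follow, since *HEM1* to *HEM4* had log2 fold changes of 0.18, 0.08, −0.89 and −0.17 and none was called. Of 8 heme genes 2 fell. *HEM13*, coproporphyrinogen oxidase, did so, at 611, 709 and 691 with SO2 and 1317, 1845 and 3328 in the controls (log2 fold change of −1.59), and *HEM15*, ferrochelatase, stood at the limit (−1.01) and fell short of it without control replicate 3 (−0.92) or SO2 replicate 1 (−0.97).

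**Figure D2:**
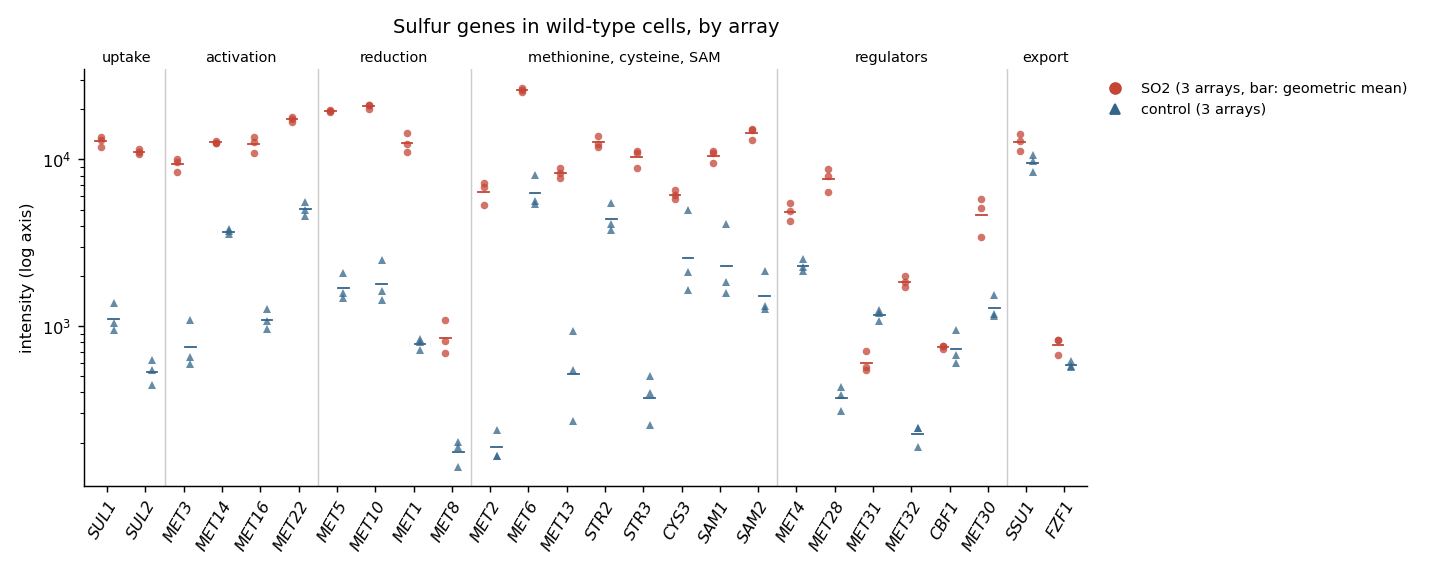
Intensity of sulfur genes on each of the 6 wild-type arrays (log axis), with SO2 arrays left and control arrays right for each gene and bars at the geometric mean. The SO2 arrays lie above the controls for all genes of uptake, activation and reduction, while *SSU1*, *FZF1* and *CBF1* differ little and *MET31* is lower.

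Downstream of sulfide, 10 of 17 measured genes of methionine, cysteine and SAM synthesis rose and none fell. The largest gains were at particular steps. *MET2*, which makes the O-acetylhomoserine that accepts sulfide, read 6873, 5299.9 and 7213 with SO2 and 166, 166 and 238 in the controls, while *HOM2* and *HOM6* earlier in that branch had log2 fold changes of 0.52 and 0.34 and were not called. *MET13*, a methylenetetrahydrofolate reductase gene, read 8915, 8273 and 7754 with SO2 and 270.2, 545 and 938 in the controls (log2 fold change of 4.01, standard error 0.34). Its isozyme gene *MET12* read 2355, 2054 and 2351 with SO2 and 1876, 1923 and 2469 in the controls, so the groups overlapped and *MET12* was not called. Of the SAM synthetase genes, *SAM2* read 15319, 13131 and 14971 with SO2 and 1313, 1259.5 and 2134 in the controls, and *SAM1* read 11284, 9505 and 10860.4 with SO2 and 1588, 1840.3 and 4071 in the controls. Control replicate 3 was the highest control for both. In transsulfuration, the 2 genes leading from cysteine to homocysteine rose, *STR3* by a log2 fold change of 4.79 and *STR2* by 1.53. Of the genes of the opposite direction, *CYS4* had 0.73 and was not called, and *CYS3*, at 1.26 (standard error 0.33), was under 2-fold without control replicate 1 (0.93).

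Permeases of sulfur compounds rose together, 6 of 7, with *MUP1*, the high-affinity methionine permease gene, just under the limit (log2 fold change of 0.96) and over it without control replicate 2 or 3 or SO2 replicate 1 (each 1.03). *SAM3*, the SAM permease gene, read 11073, 11102 and 10588 with SO2 and 1695, 1797 and 1753 in the controls. *YCT1*, a cysteine transporter gene, read 2348, 3212 and 3016 with SO2 and 512, 585 and 542 in the controls, and *OPT1*, which carries glutathione and oligopeptides, read 1511, 2104 and 1565 with SO2 and 426, 541 and 533 in the controls. No array of either group overlapped for these genes. In contrast, the sulfite pump gene *SSU1* read 11280.3, 14255 and 12894 with SO2 and 8433, 10624 and 9731 in the controls, a log2 fold change of 0.42 ± 0.15 (standard error, with a limma adjusted p = 0.0337), under the 2-fold limit. Its activator gene *FZF1* had 0.40 and the sulfonate dioxygenase gene *JLP1* had −0.35. For glutathione, the synthetase genes *GSH1* and *GSH2* had 0.78 and −0.09 and were not called, and *DUG3*, of glutathione breakdown, rose (1.19, standard error 0.11).

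Among regulators of sulfur genes, 4 of 6 rose. *MET32*, a zinc finger cofactor of Met4, read 1722, 1835 and 1985 with SO2 and 244, 243 and 189 in the controls (log2 fold change of 3.04, standard error 0.16). Its paralog *MET31* read 569.9, 707 and 545 with SO2 and 1252, 1203 and 1067 in the controls (−0.96, standard error 0.12). All 3 arrays with SO2 lay under the controls for *MET31*, but it missed the 2-fold limit, which it passed without control replicate 3 (−1.02) or SO2 replicate 2 (−1.07). *MET28*, another cofactor, read 8003, 6399 and 8784 with SO2 and 309, 432 and 386 in the controls, and *CBF1*, which binds with Met4, read 762, 730.4 and 756 with SO2 and 600.1, 669 and 951 in the controls. *MET30*, the subunit that restrains Met4, rose together with the activators, at 5117, 3444 and 5757 with SO2 and 1182, 1142 and 1541 in the controls (log2 fold change of 1.87). *MET4* itself had 1.08 (standard error 0.12) and stood at the limit, with 0.99 under median centring and 1.0 without SO2 replicate 3. *COM2*, the gene deleted in the other strain, read 2752, 2368 and 2496 with SO2 and 3558, 3679.9 and 2858 in the controls, a log2 fold change of −0.40 (standard error 0.12).

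Other amino acid pathways rose selectively. For lysine, which is made from 2-oxoglutarate through aminoadipate, 8 of 9 genes rose. All 9 lay above the controls on all arrays with SO2, against 31.5% of all probe sets. *LYS1*, the last enzyme, read 16201, 14749 and 17168 with SO2 and 2082, 3313 and 6207 in the controls (log2 fold change 2.19 ± 0.34 standard error, limma adjusted p = 0.000196). *LYS9*, which acts just before it, read 13634, 14414 and 16385 with SO2 and 3596, 4262 and 5801 in the controls. *LYS14*, the activator gene of the pathway, read 7383, 5902 and 7567 with SO2 and 2994, 3219 and 2646 in the controls (1.23, standard error 0.14), and *LYS12*, at 0.80, was the member not called. The median control replicate 3 reading of the lysine genes lay 0.57 on the log2 scale above the mean of the other 2 controls, and without that array 8 were called.

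For arginine, 7 of 8 synthesis genes rose, from the mitochondrial ornithine steps to the last cytosolic step. *ARG3*, ornithine carbamoyltransferase, read 22065, 18575 and 21780.3 with SO2 and 2285, 3761 and 6057 in the controls (log2 fold change of 2.47, standard error 0.30). *ARG2*, the first step to ornithine, read 6196, 5803 and 6726 with SO2 and 1171, 1408 and 1430.5 in the controls, and *ORT1*, the carrier that exports ornithine from mitochondria, read 8408, 7765 and 8763 with SO2 and 1944, 2633 and 2628 in the controls. *ARG1*, at 0.90, was the member not called, and it passed the limit without control replicate 3 (1.09). The breakdown side moved against synthesis at its first step, as *CAR1*, arginase, fell, with 1592, 1262 and 1529.8 with SO2 and 2445, 3552 and 7779.6 in the controls (−1.49, standard error 0.32). Control replicate 3 was the highest array for *CAR1*. The next enzyme, *CAR2*, had −0.84 and was not called, and it passed the limit without SO2 replicate 2 (−1.16). *PUT1*, proline oxidase, rose (1.93, standard error 0.22). Of the regulators of arginine genes, *ARG80* rose (1.59, standard error 0.19), and *ARG81* stood near the limit (1.03 with intensities under 152.5 set to that value). Of 8 regulator and breakdown genes 4 were called higher. Only 2 were under median centring or quantile normalization, or without SO2 replicate 1 or 3.

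In the branched-chain pathway 9 of 11 genes rose, with *BAT1*, the mitochondrial aminotransferase, at 23563, 19588 and 23020.4 with SO2 and 2863, 3837 and 9147 in the controls. At the median these genes read 0.58 higher on the log2 scale on control replicate 3 than on the other controls. Counts were smaller elsewhere, with 4 of 12 aromatic and 2 of 6 histidine genes higher, and 0 of 8 genes of glutamate, glutamine and proline synthesis called (1 higher without control replicate 3 or SO2 replicate 2). In serine, glycine and one-carbon metabolism 1 gene rose and 2 fell of 10, and the isozymes of the first serine step parted. *SER33* read 9517, 8885 and 9949 with SO2 and 2426, 2558 and 3087 in the controls, while *SER3* read 3976, 3748 and 4319 with SO2 and 10569, 10089.8 and 11534 in the controls. On the log2 scale *SER33* rose by 1.82 (standard error 0.12) while *SER3* fell by 1.42 (standard error 0.11), and *SER2*, the last step, fell by 1.40. None of 18 cytosolic aminoacyl-tRNA synthetase genes was called, with log2 fold changes of −0.91 to 0.61, and 1 was lower without control replicate 3.

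**Figure D3:**
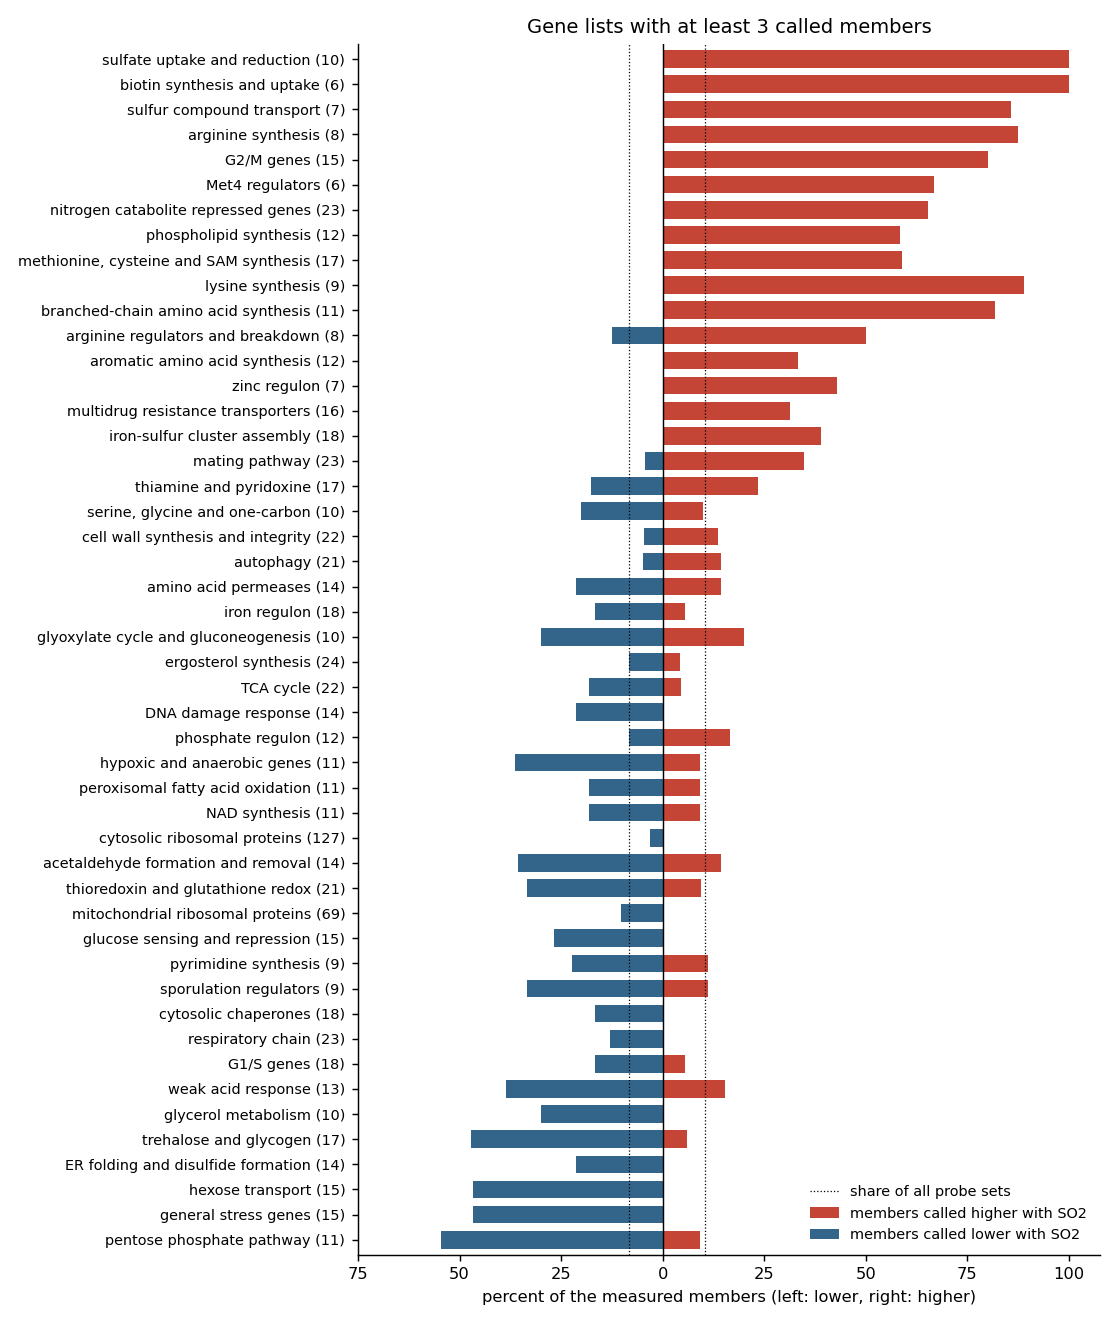
Share of the measured members of 48 gene lists called higher (right) or lower (left) with SO2, for the lists with at least 3 called members out of 76, ordered by median log2 fold change, with the number measured in brackets. Dotted lines mark the shares over all probe sets, 10.4% and 8.40%, and the lists of sulfate reduction and of biotin reach 100% while the shares called lower are largest for pentose phosphate, trehalose and glycogen, stress and hexose transport genes.

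Genes of biotin and of iron-sulfur clusters were also higher. The biotin list, of synthesis and uptake genes, rose in all 6 cases, among them the regulator *VHR1*, at 9329, 6552 and 10338 with SO2 and 1006, 1216 and 2347 in the controls. Iron-sulfur clusters, which sulfite reductase and several amino acid enzymes carry, are built on a scaffold in mitochondria and passed on in the cytosol, and 7 of 18 assembly genes rose. The scaffold gene *ISU2* read 12750.1, 8566 and 13445 with SO2 and 1048, 1233 and 2131 in the controls, and its paralog *ISU1* read 10963, 9618 and 11044 with SO2 and 2050.3, 2679.9 and 4533 in the controls. Both scaffolds were higher on every array, *ISU2* more (3.02 against 1.85, standard errors 0.27 and 0.24). *CFD1* and *NAR1* of the cytosolic machinery had 1.74 and 2.0, and the exporter *ATM1* had 1.16. The frataxin gene *YFH1* had −0.88 and was not called. *YAP5*, an activator of genes for iron storage, read 2677, 1817 and 2547 with SO2 and 455, 473 and 482 in the controls, whereas in the iron uptake regulon 1 gene rose and 3 fell of 18, with 2 higher without control replicate 3, SO2 replicate 1 or SO2 replicate 2. Among those that fell was the siderophore transporter gene *SIT1* (−1.97, standard error 0.14).

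Of 21 thiol redox genes 7 were called lower and 2 higher, against 8.40% and 10.4% of all probe sets. *GRX4*, a monothiol glutaredoxin of iron sensing, read 10314, 9499 and 11535 with SO2 and 1383, 1957 and 2019.7 in the controls. *MXR1*, which repairs oxidized methionine, read 6363, 7384 and 7061 with SO2 and 1536, 1425 and 1274 in the controls, while *MXR2*, the mitochondrial enzyme for the other stereoisomer, read 751, 817 and 718 with SO2 and 1906, 1676 and 1576 in the controls. The pair, like the other paralogs set side by side here, was picked after its values were seen, and it moved apart by log2 fold changes of 2.30 and −1.17 (standard errors 0.11 and 0.12). The dithiol glutaredoxin gene *GRX2* fell, with 1973, 2844 and 2348 with SO2 and 8073, 8613 and 5946 in the controls (−1.66). So did *GRX1*, with a log2 fold change of −1.39. *GRX8*, a glutaredoxin gene outside this list, rose (1.91 with intensities under 152.5 set to that value). The peroxide-removing genes *TSA2*, *GPX1* and *PRX1* had log2 fold changes of −2.54, −2.04 and −1.63. In a separate list of superoxide and peroxide removal none of 6 genes was called, with a median log2 fold change of 0.19. Without control replicate 1, control replicate 2 or SO2 replicate 3, 1 was lower.

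Of 9 pyrimidine synthesis genes 1 rose and 2 fell. *URA1*, dihydroorotate dehydrogenase, read 6002, 5992 and 5919.7 with SO2 and 18176, 19279.9 and 19603 in the controls, and *URA4*, the step before it, fell by 1.42 on the log2 scale (standard error 0.13). *URA10*, the minor isozyme of the following step, read 5167, 5888 and 6131 with SO2 and 1459.7, 1383 and 1223 in the controls, while the major isozyme gene *URA5* had a log2 fold change of −0.19. Of 16 purine genes *IMD2*, the inducible IMP dehydrogenase gene of the GMP branch, fell (−1.54, standard error 0.11) and *BAS1*, an activator of purine and histidine genes, rose (1.50, standard error 0.12). The remaining 14 were not called, though leaving out any of the arrays but SO2 replicate 3 added a call. Of 11 NAD synthesis genes 1 was called higher and 2 lower, with 1 lower without control replicate 3. The shares over all probe sets were 10.4% and 8.40%. *BNA3* rose, at 9552, 9599 and 11388 with SO2 and 1419, 1679 and 2750.0 in the controls, and *TNA1*, the nicotinic acid permease gene, fell, at 2504, 3731 and 2297 with SO2 and 7075, 7708 and 7526 in the controls. *BNA2* was also lower (−1.20 with intensities under 152.5 set to that value).

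Nitrogen genes that a good nitrogen source represses rose in 15 of 23 cases and none fell. Both kinds of GATA factor were among them. The activator gene *GAT1* read 9512, 6361 and 10157 with SO2 and 459, 539 and 1399.9 in the controls, and the repressor gene *DAL80* read 1529.7, 1089 and 2145 with SO2 and 87.9, 75 and 114 in the controls. The controls of *DAL80* lay under the level of the deleted genes, and with every intensity under 152.5 set to that value the fold was 10. Control replicate 3 was the highest control for both factors. The activator *GLN3* and its anchor *URE2* had log2 fold changes of 1.49 and 1.13 (standard errors 0.13 and 0.10). Of the transporters, *MEP2*, for ammonium, read 21205, 22864 and 22597 with SO2 and 3131, 4552 and 5774 in the controls, and *DUR3*, for urea, read 14896, 15035 and 15031 with SO2 and 1942, 3141 and 3428 in the controls. Of 14 amino acid permease genes 2 rose and 3 fell, where *TAT1*, *BAP3* and *GNP1* had log2 fold changes of −3.66, −1.39 and −1.32.

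Lipid and export genes held a further group of higher genes. Inositol and choline control phospholipid synthesis through the activators Ino2 and Ino4 and the repressor Opi1, and 7 of 12 genes of this list rose while none fell. *PSD1*, which makes phosphatidylethanolamine in mitochondria, read 4931, 5288 and 5898 with SO2 and 870.1, 1065 and 1386 in the controls (log2 fold change of 2.30, standard error 0.21). The activator *INO2* read 1453, 869 and 1217 with SO2 and 205, 229.6 and 404 in the controls, and the repressor *OPI1* read 3139, 1789.5 and 3804 with SO2 and 869, 900.5 and 1269 in the controls. Activator and repressor genes thus rose together (2.11 and 1.48). The methyltransferase genes *OPI3* and *CHO2*, which use SAM to make phosphatidylcholine, had log2 fold changes of 1.50 and 1.16, with *CHO2* at 1.0 under array weights, and the inositol genes *INO1* and *ITR1* had 1.60 and 1.50. The ester synthase genes *EEB1* and *EHT1* had 2.34 and 2.26, and ergosterol genes had 1 call higher and 2 lower of 24, with 2 higher without SO2 replicate 2 and 1 lower without SO2 replicate 3.

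In the weak acid list 2 genes rose and 5 fell of 13. *PDR12*, the pump of weak organic acid anions, read 17536, 19121 and 17107 with SO2 and 2189, 3077 and 2448 in the controls (7.03-fold, log2 standard error 0.17, adjusted p = 2.62e-07 from limma). *WAR1*, its activator gene, read 4702, 3498 and 4944 with SO2 and 1155, 1405 and 1532 in the controls, so pump and activator gene rose together. The remaining calls of this list were lower. *HSP30*, a membrane protein that limits the proton pump, read 1044, 1443 and 1198 with SO2 and 9771, 16025 and 10369 in the controls. *SPI1*, a cell wall protein gene, read 1267, 1651 and 1454 with SO2 and 8955, 9346 and 10694 in the controls, and *YRO2* had −2.30. The proton pump gene *PMA1* read 25999, 24886 and 25260.3 with SO2 and 21954, 21673 and 20339 in the controls, a log2 fold change of 0.25 that was not called, and 1 of 17 vacuolar H+-ATPase genes was called, at a list median of −0.10, and none without SO2 replicate 1. Of 16 multidrug resistance genes 5 rose and none fell, among them *QDR2* (2.10, standard error 0.11), *YOR1* (1.43) and *FLR1* (1.32).

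Genes of hexose uptake and of reserve carbohydrates were lower. Of 15 hexose transporter genes 7 were called lower and none higher. With intensities under 152.5 set to that value 5 were called lower, since *HXT10* and *HXT11*, both called, lay under the level of the deleted genes in both groups. *HXT7*, a high-affinity transporter, read 789, 999 and 885 with SO2 and 13250.4, 14559 and 10729 in the controls, *HXT3*, of low affinity, read 5970.3, 7790.0 and 7915 with SO2 and 20272, 20157 and 17676 in the controls, and *HXT5* had a log2 fold change of −2.27. Glucokinase, *GLK1*, fell to 1038, 1707 and 1357 with SO2, against 5762, 7107 and 10058 in the controls, and *HXK2* had −1.42. Of 15 genes in the glycolysis list, which holds *HXK1* and *GLK1* and the steps below them, 2 were called, and both are kinases of the first step. In the trehalose and glycogen list 8 of 17 genes fell, such as *TSL1*, a subunit of trehalose synthase, at 1122, 1348 and 1383 with SO2 and 5779, 8307 and 8206 in the controls, and *GLC3*, the glycogen branching enzyme, at −2.85. *GLG2* of this list moved the other way and was called higher (log2 fold change of 1.17).

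The pentose phosphate pathway, which makes NADPH, split at its first step. *ZWF1*, glucose-6-phosphate dehydrogenase, rose, at 3789.6, 5535 and 3421 with SO2 and 1341, 1284 and 2137 in the controls (log2 fold change of 1.43, standard error 0.22), and 6 of the other genes fell. *GND1*, the main enzyme of the third step, read 7222, 6432 and 7225 with SO2 and 13726, 14658 and 17714 in the controls. *SOL4* and *GND2*, the paralogs of the second and the third step, and *NQM1*, a transaldolase paralog, had log2 fold changes of −3.68, −2.09 and −3.06, and *SOL4* fell 10.3-fold with low intensities set to 152.5, the level of the deleted genes. Sulfite binds acetaldehyde, and genes of acetaldehyde use also divided by isozyme. *ALD6*, the cytosolic NADP-dependent dehydrogenase, read 2147, 1759 and 1962 with SO2 and 11882, 9747 and 13095 in the controls, while *ALD5*, a mitochondrial enzyme, read 22838, 20660.1 and 22818 with SO2 and 5331, 7336 and 8224 in the controls. The first fell by 2.56 on the log2 scale and the other rose by 1.69 (standard errors 0.14 and 0.18), with *ALD3* and *ALD4* among those lower (−1.93 and −1.25). The main alcohol dehydrogenase and pyruvate decarboxylase genes *ADH1* and *PDC1* had 0.0 and −0.22 and were not called.

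Respiratory genes fell in a few cases. *CYC7*, the minor isoform of cytochrome c, read 21.4, 24.1 and 19.2 with SO2 and 679, 1608 and 814 in the controls, so it lay under the level of the deleted genes with SO2, and with intensities under 152.5 set to that value the fall was 6.31-fold. Its major isoform *CYC1* read 1217, 1056 and 1132 with SO2 and 1988, 2056 and 2735 in the controls and was not called (−0.98), though it passed the limit without control replicate 1 (−1.07), control replicate 2 (−1.04) or SO2 replicate 1 (−1.03). *NDE1*, the external NADH dehydrogenase gene, fell to 534, 654 and 607 with SO2, against 5409, 6496 and 7173 in the controls (log2 fold change of −3.41, standard error 0.15). *ISF1* and *NCA3*, both linked to mitochondrial function, had −4.57 and −3.69, and *ISF1* fell 15.8-fold with low intensities set to 152.5. Most respiratory genes were not called, with 3 of 23 chain genes and 0 of 12 ATP synthase genes called lower and medians of −0.46 and −0.55. Without control replicate 1 the chain had 5 calls lower. The glyoxylate genes *ICL1* and *MLS1* rose (1.96 and 2.98, the second 3.82-fold with low intensities set to 152.5), while *MDH2*, of the same cycle, fell to 474, 557 and 939.6 with SO2, against 5623, 7149 and 9308 in the controls, as did the activator gene *ADR1* (−2.57, standard error 0.11). The anaerobic genes *ANB1* and *AAC3* fell (−1.88 and −1.61) and *TIR2*, a cell wall mannoprotein gene, rose (1.96).

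General stress genes were lower rather than higher with SO2. Of 15 such genes 7 fell and none rose. *HSP12*, which encodes a small membrane-linked stress protein, read 8868, 9347 and 6410.3 with SO2 and 25781, 22069 and 16428 in the controls, *PNC1*, nicotinamidase, read 1228, 1015 and 1635 with SO2 and 6269, 7876 and 8405 in the controls, and *HSP42*, a small chaperone, read 511, 361 and 782 with SO2 and 2352, 3709 and 5189 in the controls. The groups did not overlap for these genes. *CTT1*, the cytosolic catalase gene, stood at log2 −0.99 ± 0.29 (standard error) and was called without SO2 replicate 3 (−1.19), control replicate 1 (−1.09) or control replicate 2 (−1.08). Of the C2H2 regulators of the stress response, *MSN2* and *MSN4* had 0.75 and −0.64 and were not called, and *GIS1* and *USV1* fell (−1.29 and −1.89, *USV1* 2.86-fold with low intensities set to 152.5). Of 18 cytosolic chaperone genes 3 fell, and 5 without SO2 replicate 3. *HSP104*, the disaggregase gene, fell to 2948, 3323 and 4228 with SO2, against 11992, 13418 and 11965 in the controls, and *HSP82*, an Hsp90 gene, had −2.04. In the endoplasmic reticulum, *KAR2*, its Hsp70 chaperone, read 6979, 7054 and 7513 with SO2 and 17112, 17202 and 16379 in the controls and *MPD1*, a disulfide isomerase gene, had −1.90. In all 3 genes of this list were called lower, and 13 of 14 were lower on all 3 arrays, against 31.4% of all probe sets. None of 32 proteasome genes was called, with log2 fold changes of −0.75 to 0.32.

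**Figure D4:**
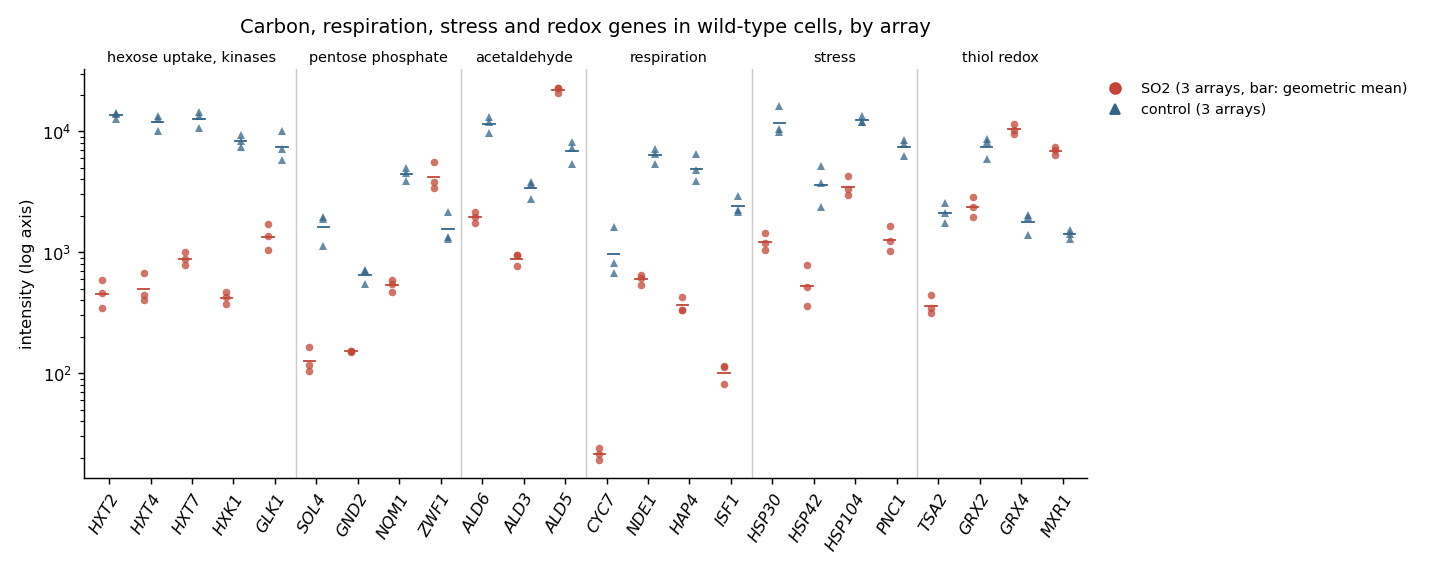
Intensity of genes of carbon metabolism, respiration, stress and thiol redox on each wild-type array (log axis), with SO2 arrays left and control arrays right for each gene and bars at the geometric mean. The SO2 arrays are lower for all of them but *ZWF1*, *ALD5*, *GRX4* and *MXR1*.

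Genes of the translation machinery were mostly lower by less than 2-fold. Of 127 measured genes of cytosolic ribosomal proteins 106 lay lower on all arrays with SO2, against 31.4% of all probe sets. Their median log2 fold change was −0.31, with 4 calls. *RPS22B* read 1969, 2830.5 and 1229 with SO2 and 14215, 14361 and 12340.0 in the controls, while its paralog *RPS22A* read 13422, 15521 and 12040.2 with SO2 and 19153, 18627 and 18170.3 in the controls. *RPS9A* read 1893, 1540.5 and 935 with SO2 and 6739, 6339.5 and 7912 in the controls, and *RPS9B* read 12587, 11211 and 11021 with SO2 and 17994, 17883 and 19342 in the controls. In both pairs, which encode nearly the same protein, 1 paralog had a log2 fold change of −2.84 or −2.32 and the other had −0.46 or −0.67. Probes of such pairs can read both transcripts. *RPL18B* had 2 probe sets, of which 1 fell by 1.99 on the log2 scale and the other, marked by the manufacturer as shared between transcripts, had −0.28. Of 49 ribosome biogenesis genes and 20 genes of RNA polymerases I and III none was called, with medians of −0.26 and −0.09. Without control replicate 3 each list had 1 call lower, as had ribosome biogenesis without SO2 replicate 1. Of 69 mitochondrial ribosomal protein genes 7 fell, which is near the 8.40% of all probe sets called lower.

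Genes expressed from G2 into mitosis were higher, 12 of 15, with a median of 1.62 on the log2 scale. *CLB1*, a mitotic cyclin gene, read 6749, 6183 and 5962 with SO2 and 1097, 1149 and 1392 in the controls, and *CLB2*, its partner, read 1241, 1454 and 1180.3 with SO2 and 867, 766 and 578 in the controls. *CDC20*, which activates the anaphase-promoting complex, read 2767, 2692 and 3018 with SO2 and 617, 681 and 632 in the controls, and *SWI5*, a transcription factor gene of the end of mitosis, read 3663, 3755 and 3601 with SO2 and 895, 883 and 765 in the controls. Of these *CLB2* was not called (0.82) and the others rose more than 4-fold (2.38, 2.13 and 2.12). *FKH2* and *NDD1*, whose products activate this gene cluster, had 0.37 and 0.76 and were not called, and *FKH1* stood at the limit (1.01) and fell under it without SO2 replicate 1, SO2 replicate 3, control replicate 1 or control replicate 2 (0.87, 0.98, 0.74 and 0.87). At the other end of the cycle 3 of 18 G1/S genes were called lower and 1 higher. Without control replicate 1 there were 6 lower calls and without control replicate 3 there were 2, and the higher call ended without SO2 replicate 1 or 3 or control replicate 1 or 2. *RNR1*, of ribonucleotide reductase, read 1170.0, 1214 and 642 with SO2 and 2260.1, 3007 and 5649.7 in the controls, and control replicate 3 was the highest array. The G1/S genes read 0.59 higher on the log2 scale on that control array than on its replicates at the median.

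Mating genes rose in 8 of 23 cases and 1 fell. The subunits of a-agglutinin, which binds cells of the other mating type, rose together. *AGA2* read 16464, 15982 and 19138 with SO2 and 3124, 2859 and 3389 in the controls, and *AGA1* read 6034, 6598 and 7465 with SO2 and 1168, 1118 and 1443 in the controls. *FUS1*, of cell fusion, read 3401, 3592 and 4417 with SO2 and 1208, 1074 and 985 in the controls, and *FAR1*, which arrests the cycle in response to pheromone, read 5348, 5543 and 5882 with SO2 and 1582, 1179.9 and 1037 in the controls. *SST2* and *BAR1*, which dampen the response to pheromone, had log2 fold changes of 1.75 and 1.71 (standard errors 0.15 and 0.15). The kinase gene *FUS3* had 0.57 and the transcription factor gene *STE12* had 0.84, and neither was called, though *FUS3* had 1.23 under array weights.

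**Figure D5:**
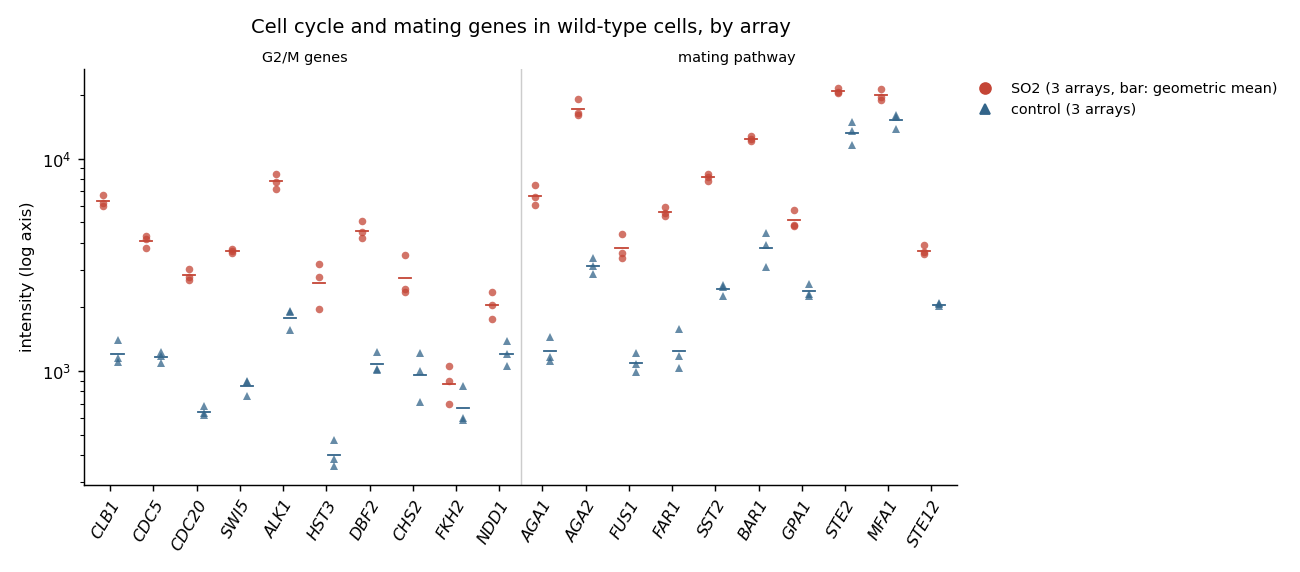
Intensity of G2/M and mating genes on each wild-type array (log axis), with SO2 arrays left and control arrays right for each gene and bars at the geometric mean. All arrays with SO2 lie above all controls for *CLB1* to *CHS2* and from *AGA1* to *MFA1*, and the groups overlap for *FKH2*.

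Called genes also lay side by side on the chromosomes. Taking measured named genes in their order in RefSeq R64, 26 runs of at least 3 neighbours were called in the same direction, 18 higher and 8 lower, with 81 genes in all. On chromosome XIV *BIO5*, *BIO4* and *BIO3* form such a run (log2 fold changes of 5.26, 3.34 and 4.71). On chromosome IX *DAL2*, *DCG1*, *DAL7* and *DAL3* of allantoin use do so (1.08, 1.64, 2.78 and 3.29, with *DAL2* at 0.98 under median centring), as do *MET28*, *YAP5* and YIR018C-A (4.36, 2.30 and 1.49). On chromosome V *GRX4*, *TMT1* and *ECM32* rose (2.56, 2.92 and 1.88). YER175W-A, counted in the same run, read under the level of the deleted genes on all 6 arrays and lost its call with that level as background. On chromosome XII *MHT1* and *MMP1*, of S-methylmethionine use, stand beside *GTT2* (1.55, 2.52 and 1.29). Among the runs that fell, *CMK1*, *GSY1* and *IGD1* lie on chromosome VI (−1.72, −4.61 and −2.78), and *PHO89*, *MAL33* and *MAL31* on chromosome II (−3.11, −1.23 and −2.76), with *MAL33* at −0.98 without SO2 replicate 1. Where neighbours overlap, it was not tested from which of them a transcript came.

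Against *com2*Δ cells, the response of wild-type cells differed at many of its genes. The difference of the responses (wild-type minus *com2*Δ, the interaction in limma) was called at 371 of the 597 probe sets higher in wild-type cells and at 282 of the 480 lower ones, in the same direction. Over all probe sets 9.24% had a called difference upwards and 8.21% downwards, and the 2 comparisons share the wild-type arrays. Over all measured members of a list, called in wild-type cells or not, the difference was called upwards at 10 of 10 sulfate genes, 7 of 7 permeases and 6 of 6 biotin genes, at 9 of 17 genes of methionine, cysteine and SAM synthesis, at 2 of 6 glutathione genes and at 0 of 3 genes of sulfite export and sulfonate use. The median log2 fold changes of the sulfate genes were 3.53 for wild-type cells and −0.13 for *com2*Δ cells. It was also called upwards at 10 of 12 phospholipid, 10 of 15 G2/M and 8 of 23 mating genes. *PDR12* changed by log2 2.81 in wild-type cells, where *com2*Δ cells had 0.16 (difference 2.65, standard error 0.23), and *ALD6* had −2.56 and 1.12 (difference −3.68, standard error 0.20). For other groups the difference was called at fewer genes. Of the 23 nitrogen genes 5 had a difference upwards and 2 downwards, at medians of 1.36 for wild-type cells and 1.14 for *com2*Δ cells. The zinc transporter gene *ZRT1* had 1.87 and 1.59 (difference 0.28, standard error 0.24), *ISU1* had 1.85 and 1.74 (0.11, standard error 0.34), and *HXT5* had −2.27 and −2.29 (0.02, standard error 0.37). A difference that was not called does not show that the strains responded alike.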

How the data were processed

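The deposited values were intensities on a linear scale, 1 per probe set and array, for 12 Affymetrix yeast arrays. Per the study's methods, the authors normalized arrays to an invariant set of probes and computed model-based indices from perfect match probes in dChip, and the processing notes name MAS5 with no version. The lowest deposited intensity is 1, so low genes rest on a floor, and scanner files were not used here. The deposited values were taken as they are, with no new background correction.

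Probe sets were named from the platform annotation, updated through the RefSeq table of assembly R64: 5498 of 5716 probe sets named 1 gene and 218 none, 12 names were updated, and 47 of 5449 genes had several probe sets, of which the brightest one was kept for gene lists. Of the genes in the lists, 23 matched no probe set. Log2 intensities of all 12 arrays in 4 groups were fitted in limma 3.58.1 (R 4.3.3) with 8 residual degrees of freedom, and the contrast was wild-type with SO2 minus wild-type control. Calls took a 2-fold difference, p under 0.05 and, after Benjamini-Hochberg adjustment, a false discovery rate below 10%. The interaction was the wild-type response minus the *com2*Δ response. The fit was tested on simulated data. Tables and plots were made in Python 3.11.15 with numpy 2.4.6, pandas 2.3.3 and matplotlib 3.10.9.

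The members, gene lists and tests were chosen with earlier results of these data known. Named genes were the 20 highest and 20 lowest log2 fold changes among called genes without overlap, and, for each list, called members of large change, its regulators, members against the trend and genes in runs of neighbours. Gene lists were described by counts and medians, with no set test. Promoter and protein sequences were not used here.

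Alternatives were quantile normalization, median centring, a filter on dim probe sets, 16 added to each intensity, the level of the deleted genes as background, array weights, trended and robust moderation, other call limits, only the wild-type arrays, 1 probe set per gene, the replicate number as a block and leaving out each array in turn. Same-numbered arrays deviated together in 2 of the 3 pairs and not in the other, and some pairs of unlike number did so too. The replicate number was therefore not taken to pair the arrays, and the block is not part of the main model.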

Additional observations from a re-analysis of the deposited data

Results flagged for a closer look

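The log2 response to SO2 differed between wild-type and *com2*Δ cells at 658 of the probe sets called in wild-type cells (interaction in limma, false discovery rate under 10%, 2-fold difference). Of these, 4 called higher and 1 called lower differed against the direction of the wild-type change. Over all probe sets 9.24% had a called difference upwards and 8.21% downwards. Among the 40 named genes with the largest changes 37 had a called difference, all in the direction of the wild-type change. These genes were picked by their wild-type change, which is part of the difference, so the choice itself favours that count. Differences are wild-type minus *com2*Δ, with 3 arrays in each of the 4 groups.

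Among genes higher with SO2, those of sulfate uptake, reduction and methionine synthesis had differences of 5.0 at *MET2*, 4.79 at *SUL1*, 4.49 at *MET13*, 4.05 at *SUL2*, 4.05 at *MET5*, 4.23 at *STR3*, 3.92 at *MET1*, 3.87 at *MET10*, 3.44 at *MET3*, 3.35 at *MET16* and 3.27 at *MET28*. The biotin genes had 3.97 at *BIO5*, 3.09 at *BIO3*, 2.95 at *BIO4* and 2.44 at *BIO2*. *CHA1*, which breaks down serine and threonine, had 5.32, and the nitrogen and nitrilase genes had 2.58 at *NIT1*, 2.37 at YIL165C, 2.20 at *GAT1* and 1.81 at *DAL80*. With intensities under 152.5 set to that value, *DAL80*, whose controls read under it, had 3.18, *SUL1* had 4.17 and *CHA1* had 5.03.

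Among genes lower with SO2, those of hexose uptake and phosphorylation had −2.80 at *HXT2*, −2.48 at *EMI2*, −2.26 at *HXK1*, −1.44 at *HXT4* and −1.05 at *HXT7*. Genes linked to respiration and carbon use had −4.62 at *CYC7*, −3.07 at *SOL4*, −2.87 at *MDH2*, −2.85 at *NDE1*, −2.81 at *NCA3*, −2.68 at *ISF1* and −2.60 at *HAP4*. The other genes had −5.21 at YER053C-A, −3.73 at *TAT1*, −2.40 at *TDA6*, −2.17 at *STP4* and −1.20 at YCL042W. *GSY1*, YKR075C and *TMA10* had no called difference. *CYC7*, *ISF1* and YCL042W read under the level of the deleted genes on all 3 wild-type arrays with SO2, and *SOL4* did so in its mean. With intensities under 152.5 set to that value, the differences of *CYC7*, *SOL4*, *ISF1* and YCL042W were −1.85, −2.76, −2.09 and −0.29, the last under 2-fold.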

How the results depend on the processing

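The counts were 597 probe sets higher and 480 lower, with 658 that differed between the strains. An adjusted p under 0.05 with no fold limit gave 1706 higher, 1710 lower and 2135 that differed, and leaving out the 25% dimmest probe sets gave 295 lower, since fewer were tested. Leaving out each array in turn gave 557 to 643 higher, 464 to 550 lower and 626 to 755 that differed. Median centring, which moved the median of all probe sets by −0.10 on the log2 scale, gave 502 higher and 579 lower, so that 46.4% of the calls were higher, against 55.4% as reported. The replicate numbers did not meet the rule for pairing, a correlation over 0.1 in every pair, as the deviations of same-numbered arrays correlated at −0.28, 0.47 and 0.34. Pairs of unlike number reached 0.44 (SO2 replicate 1 with control replicate 3) and 0.41 (SO2 replicate 2 with control replicate 1). The other pairs of unlike number ran from −0.53 to −0.22. With the replicate number as a block 597 were higher, 479 lower and 658 differed. The alternatives were read gene by gene for 212 named genes, of which 176 were called. None of these changed sign, and the genes among them whose calls ended are given with the report's values. *ARG81*, called near the limit, was not among them. The fit of array weights stopped before it converged, so values under array weights are approximate. The 3 arrays per group and the floor of 1 for dim probe sets limit the precision, and 45 called probe sets read under the level of the deleted genes in both groups.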

Other observations

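Further gene groups of wild-type cells held calls. Thiamine and pyridoxine genes had 4 higher and 3 lower of 17, glycerol genes 0 higher and 3 lower of 10, autophagy genes 3 higher and 1 lower of 21, cell wall genes 3 higher and 1 lower of 22, phosphate genes 2 higher and 1 lower of 12, zinc genes 3 higher and 0 lower of 7 and histone genes 2 higher and 0 lower of 9. Background shares were 10.4% higher and 8.40% lower. Single arrays moved several of these counts. Phosphate genes had 1 higher call without control replicate 3, SO2 replicate 1 or SO2 replicate 3, and 3 lower calls without control replicate 3 or SO2 replicate 2 and 2 without control replicate 2. Histone genes had 1 higher call without SO2 replicate 1, control replicate 1 or control replicate 2. The lower call among autophagy genes ended with the level of the deleted genes as background. Without control replicate 3 TCA cycle genes had 1 lower call in place of 4 (2 without SO2 replicate 1), and genes of daughter cell separation, which read −1.01 on the log2 scale on that array relative to the other controls at the median, had 1 higher call in place of 2.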
